A study of Mus musculus with 7 samples.

Results

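The heat shock and DnaJ chaperone genes were followed through bulk RNA-seq of the mouse medial amygdala. The set was every row of the deposited table annotated as protein-coding whose symbol began with Hspa, Hspb, Hsp90, Dnaja, Dnajb or Dnajc and a digit, or was Hspd1, Hspe1 or Hsph1. That rule, which used symbols and no measured value, took 72 of 55414 genes. They comprised 13 Hsp70 genes, 8 small heat shock genes, 3 Hsp90 genes, 45 DnaJ genes and the 3 single genes Hspd1, Hspe1 and Hsph1. Libraries came from 3 female and 4 male mice, all 2 months old when killed and all carrying the Trap-Ai9 genotype. In that genotype a tamoxifen-activated Cre recombinase, driven by the activity gene Fos, switches on a red reporter in cells active around the dose. Tamoxifen was given by mouth, to females at 6 weeks and to males at postnatal day 24 according to the sample labels, while the design text names day 24 for the animals in general. Sex, the age at tamoxifen and the time since tamoxifen therefore cannot be told apart. No group without tamoxifen, without the reporter or without slice cutting was included.

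The tissue was taken from living slices of 300 µm cut in ice-cold oxygenated solution, and the fluorescent area called DIMPLE in the labels was cut out under a microscope. DIMPLE filled 25, 20 and 20% of the piece in females 1 to 3 and 40, 18, 32 and 29% in males 1 to 4. Numbers of the animals are the replicate numbers of the labels, which name no pairing. The labels give one animal for each library, so n counts mice. In a bulk piece, fewer cells of a type and less RNA in each cell cannot be told apart.

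Heat shock proteins are molecular chaperones. Hsp70 proteins bind unfolded segments of a client in a cycle driven by ATP, DnaJ proteins bring the client and trigger ATP hydrolysis, and exchange factors such as Hsph1 reset the cycle. Hsp90 proteins complete the folding of kinases and steroid receptors, small heat shock proteins hold aggregating clients, and Hspd1 with Hspe1 forms the folding chamber of mitochondria. When proteins unfold, the transcription factor HSF1 binds repeats of the element nGAAn and switches on Hspa1a, Hspa1b, Hspb1, Hsph1, Dnajb1, Hsp90aa1 and Dnaja1 within minutes, while relatives such as Hspa8 and Hsp90ab1 run all the time. Cutting of brain slices is a known trigger of this response and of immediate early genes. Members were therefore sorted by textbook role into 7 stress-induced genes, 5 constitutive genes that heat can also raise, 15 constitutive cytosolic or nuclear genes and 4 synaptic or endocytic genes. The others were 15 genes of the endoplasmic reticulum (ER), 10 mitochondrial genes, 6 other small heat shock or vascular genes, 8 germ cell or cilium genes and 2 that were not sorted.

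The promoters below are shown because HSF1 acts through this element, and because Hspa1a and Hspa1b are near-copies that behaved differently in the counts. All are RefSeq sequences of GRCm38.p6 written 5′ to 3′ on the gene's strand and ending at the base before the start site. For Hspa1a (chr17:34972157-34972406, minus strand) and Hspa1b (chr17:34959239-34959488, minus strand) the 250 bases before the start are printed with the 2-unit element GAANNTTC in capitals.
Hspa1a: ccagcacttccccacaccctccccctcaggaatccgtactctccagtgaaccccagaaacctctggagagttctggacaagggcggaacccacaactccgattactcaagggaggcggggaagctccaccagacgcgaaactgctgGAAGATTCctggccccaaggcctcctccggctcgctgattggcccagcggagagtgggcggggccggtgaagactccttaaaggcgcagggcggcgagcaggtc
Hspa1b: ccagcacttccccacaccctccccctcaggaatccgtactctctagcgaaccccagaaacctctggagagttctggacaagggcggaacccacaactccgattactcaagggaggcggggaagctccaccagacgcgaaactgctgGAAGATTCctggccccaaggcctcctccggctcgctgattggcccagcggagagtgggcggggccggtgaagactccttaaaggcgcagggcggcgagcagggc
These windows were identical at 247 of 250 positions and differed by C44T, T47C and T249G, with Hspa1a first and positions counted from 1 at the 5′ end. None of the 3 lies in the capitals, which start 104 bases before the start site in both.

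The mitochondrial pair Hspd1 and Hspe1 lies head to head, and the 120 bases before the start of Hspe1 (chr1:55088028-55088147, plus strand) are shown because this stretch holds overlapping 3-unit elements read by both genes' promoter windows. Capitals mark the 3-unit element, GAANNTTC followed by NN and GAA, on either strand, in 2 overlapping matches.
Hspe1: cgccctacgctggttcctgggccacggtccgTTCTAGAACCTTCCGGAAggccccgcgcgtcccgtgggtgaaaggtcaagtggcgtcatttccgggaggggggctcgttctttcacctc
For the ER chaperone Hspa5 the 150 bases before the start (chr2:34771940-34772089, plus strand) are shown with the ER stress element, CCAAT and CCACG parted by 9 bases, in capitals, 65 bases before the start.
Hspa5: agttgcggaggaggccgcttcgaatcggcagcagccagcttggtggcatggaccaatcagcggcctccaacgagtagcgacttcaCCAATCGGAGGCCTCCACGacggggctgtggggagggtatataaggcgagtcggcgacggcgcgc
The ER stress element is the one through which unfolded protein in the ER raises its chaperones.

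Promoter windows from 250 bases before to 50 bases after the start were matched for 58 of the 72 members, Hsp90aa1 not among them, and were searched on both strands. GAANNTTC, which reads the same on both strands, stood in 5 of 6 stress-induced genes, namely Hspa1a, Hspa1b, Hspb1, Hsph1 and Dnaja1. Dnajb1 had none of these letters in its window. GAANNTTC stood in 14 of all 58 members. Among 27025 mouse genes with a promoter, 9.04% held GAANNTTC. The other 2-unit arrangement, TTCNNGAA, stood in 1 of 6 stress-induced genes, Hsph1. It stood in 6 of all 58 members and in 9.60% of all genes. The 3-unit element, which contains GAANNTTC, stood in Hspd1, Hspe1, Hsph1 and Dnajb6 and in 0.662% of all genes. The ER stress element stood in Hspa5, Hsp90b1 and Dnajc3, all ER genes, and in 0.137% of all genes. These matches describe letters in a window and say nothing of binding in these mice.

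Total counts ranged from 29049604 to 46494588 per library, and the 72 genes together took between 0.921% (female 3) and 1.04% (male 1) of them. Levels are given as CPM, counts divided by the TMM-scaled library size, and differences between males and females come from edgeR's quasi-likelihood test over 20420 genes. Of the members, 64 had enough counts to be tested. Some libraries stood apart. Male 3 had a summed 14460 CPM of 7 choroid plexus and ependyma genes against 75.4 to 440 CPM in the other 6 libraries. Of its sum, 13618 CPM was Ttr. Male 3 also had 9138 CPM of 7 oligodendrocyte genes against 1526 to 3960. Male 1 had 5.74% of its counts in mitochondrially encoded mRNA against 2.24 to 2.88% elsewhere. Male 4 had 732 CPM of 18 immediate early and handling-sensitive genes against 410 to 547, and its Fos stood at 32.5 CPM against 4.12 to 13.9. A list of 7 pallial projection neuron genes summed to 65.6 to 113 CPM in the females and to 171 to 916 CPM in the males. A list of medial amygdala and inhibitory neuron genes summed to 927 to 2169 CPM over the libraries. Most of it was Gad1 and Gad2, with means of 510 and 550 CPM, while Esr1 and Cyp19a1 averaged 59.3 and 24.9 CPM. The sum alone therefore does not mark the medial amygdala.

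Compared per exon length, constitutive genes led. Hsp90ab1, the constitutive cytosolic Hsp90, was highest at a mean of 1241 TPM (counts per exon length scaled to a common total), followed by the constitutive Hsp70 gene Hspa8 at 765 TPM and by the inducible Hsp90 gene Hsp90aa1 at 627 TPM. Next on the same scale came Hspa5, the ER Hsp70, at 442 TPM, the mitochondrial co-chaperonin Hspe1 at 340 TPM and the ER Hsp90 gene Hsp90b1 at 280 TPM. Each of these 6 genes overlapped its neighbour in this order in its range over libraries. In all, 15 members had a mean of at least 100 TPM, 54 at least 10 TPM and 10 under 1 TPM.

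**Figure D1:**
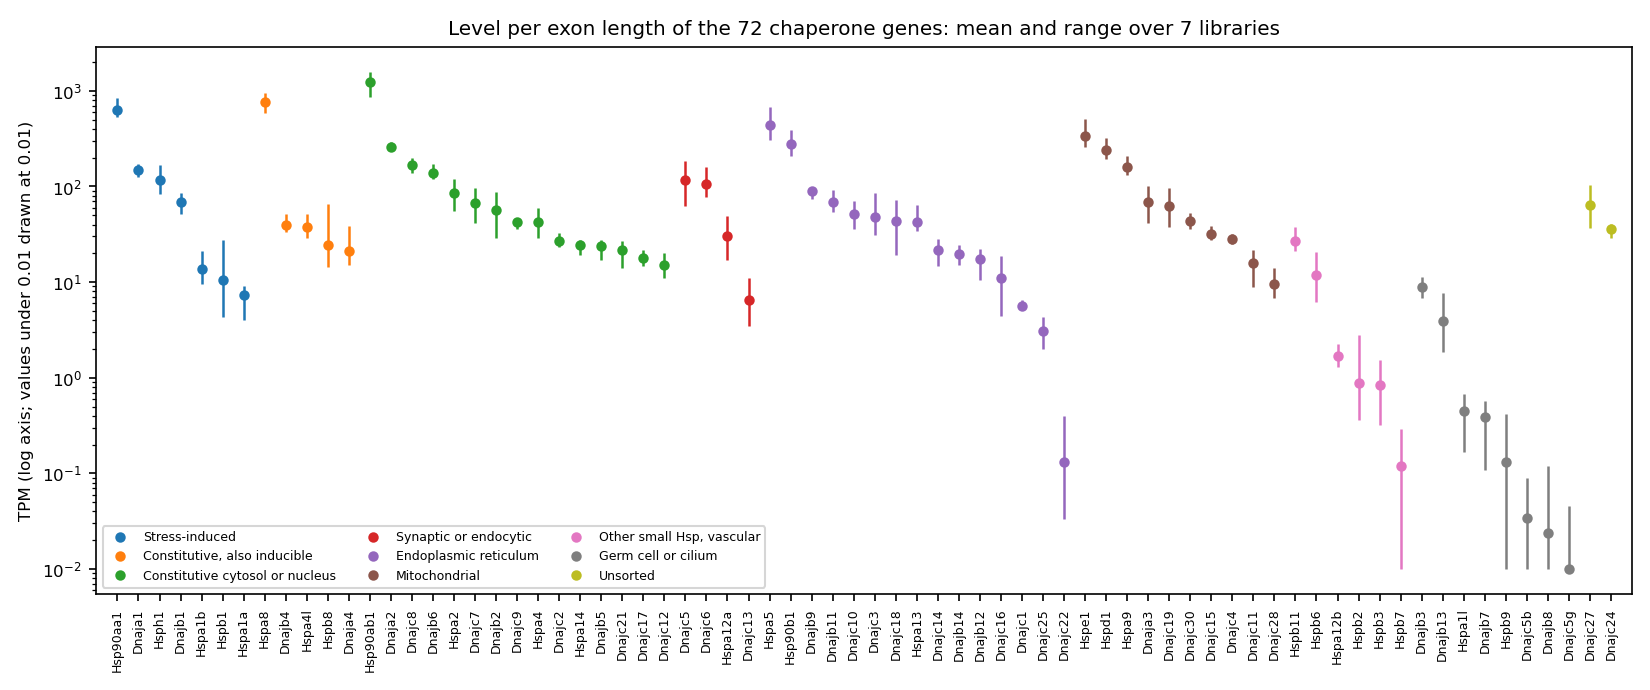
Mean (point) and range (line) over 7 libraries of the level of each of the 72 chaperone genes per exon length, in TPM on a log axis, ordered by class and level. Hsp90ab1 and Hspa8 are at the top at 1241 and 765 TPM, while Hspa1a and Hspa1b stand at 7.39 and 13.6 TPM.

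The strictly inducible Hsp70 genes were low. Hspa1a averaged 7.39 TPM and Hspa1b 13.6 TPM. Together they amounted per length to 2.22, 2.04 and 2.73% of Hspa8 in females 1 to 3. In males 1 to 4 they amounted to 2.88, 2.33, 3.18 and 4.17% of Hspa8. The 3 females averaged 2.33 ± 0.355% (SD, n = 3) and the 4 males 3.14 ± 0.772% (SD, n = 4), with male 2 lower than female 3, so the groups overlapped. Hspb1 was likewise low at 10.5 TPM. The stress-induced genes Dnaja1, Hsph1 and Dnajb1 averaged 147, 118 and 68.2 TPM. Every library came from cut slices, so levels present before cutting and levels raised by it cannot be told apart.

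None of the 64 tested members passed the adjusted threshold of 0.05 between males and females, where 0.0245% of all genes did (5 of 20420). At an unadjusted p under 0.05, 2 members were higher in males, Hspa1b and Hspa2, which is 3.12% of members against 2.68% of all genes. No member was lower in males at that level, against 2.03% of all genes. DESeq2, run without the filter on low counts, called 0 of 72 members and 122 of 40076 genes. It had 5 members and 3.24% of genes at an unadjusted p under 0.05. In the authors' deposited DESeq2 results the members at that level were Hspa1b, Hspb8, Hspb1, Hspa2 and Hspa12a, all higher in males. Limma-voom called 0 members and 6 genes, with 2 members and 4.71% of genes at that level. The estimate was higher in males for 34 of 64 members (53.1% against 52.3% of all genes), and the median log2 difference was 0.03 against 0.01 over all genes.

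**Figure D2:**
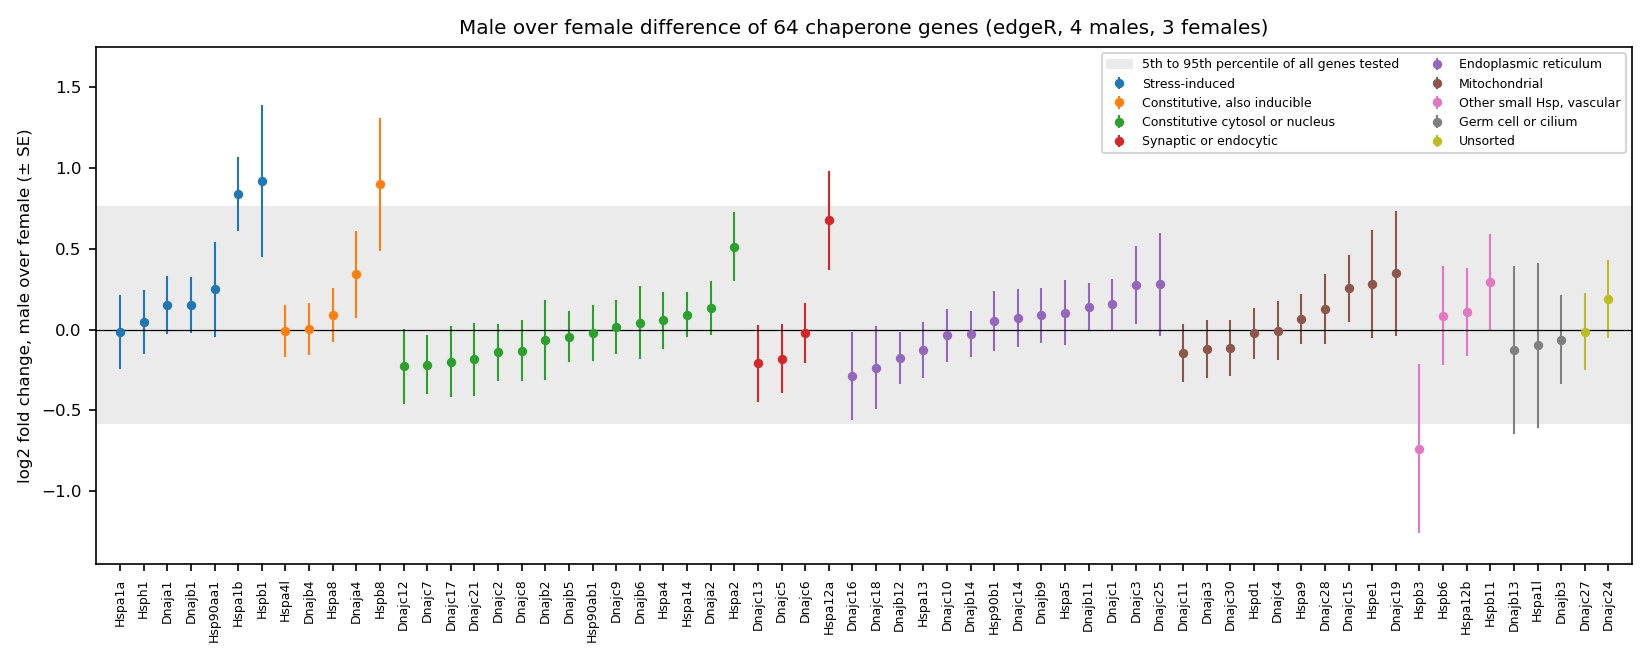
Log2 fold change, male over female, of the 64 tested chaperone genes with its standard error, from edgeR on 4 males and 3 females, by class; the grey band spans the 5th to the 95th percentile of all genes tested. Hspb1, Hspb8 and Hspa1b lie above the band at 0.92, 0.90 and 0.84, and Hspb3 below it at -0.74.

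Among the stress-induced genes, Hspa1b (ENSMUSG00000090877, chromosome 17, 35175412 to 35178214 on GRCm39, minus strand) had the lowest p of all members. It encodes inducible cytosolic Hsp70. It stood at 9.89, 9.53 and 10.1 CPM in females 1 to 3. In males 1 to 4 it stood at 17.2, 12.3, 17.9 and 23.1 CPM. Every male was above every female, as for 2.54% of all genes, and the females differed little among themselves. The log2 difference was 0.84 ± 0.23 (SE) with an unadjusted p of 0.00431 and an adjusted p of 0.63 (edgeR). For Hspa1b the authors' deposited table lists an adjusted p of 0.151. Its estimate was 0.56 with males 1 and 2 alone, and 1.07 with males 3 and 4 alone. Without male 4, the library with the highest Fos, it was 0.68. The pallial projection neuron list was likewise higher in every male than in every female. Estimates were higher in males for 7 of 7 oligodendrocyte genes (median 0.79, 3 at an unadjusted p under 0.05) and lower for 7 of 7 medial amygdala and inhibitory neuron genes (median -0.49, 1 at that level), none called. The part of these lists or of Fos in Hspa1b was not tested.

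Its near-copy Hspa1a (ENSMUSG00000091971, chromosome 17, 35188166 to 35191132, minus strand), which encodes virtually the same protein, did not follow. Hspa1a stood at 8.61, 8.08 and 7.45 CPM in the females and at 5.74, 8.16, 8.88 and 9.07 CPM in the males. Males lay on both sides of the females, and the log2 difference was -0.01 ± 0.23 (SE). The ratio of Hspa1b to Hspa1a per length was 1.22, 1.25 and 1.43 in the females and 3.17, 1.59, 2.13 and 2.70 in the males. Of all stretches of 50 bases in the exons of Hspa1a, 58.8% also occur in Hspa1b, so how the authors' counting split shared reads bears on both genes. Their summed level does not depend on how counted reads were split between the copies, but it would miss shared reads that were dropped, as would their level against Hspa8. It was 18.5, 17.6 and 17.5 CPM in the females and 22.9, 20.4, 26.8 and 32.2 CPM in the males. The sum was thus again higher in each male than in each female, at 17.9 ± 0.541 CPM (SD, n = 3) and 25.6 ± 5.12 CPM (SD, n = 4). It was chosen after the values were seen and was not tested.

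**Figure D3:**
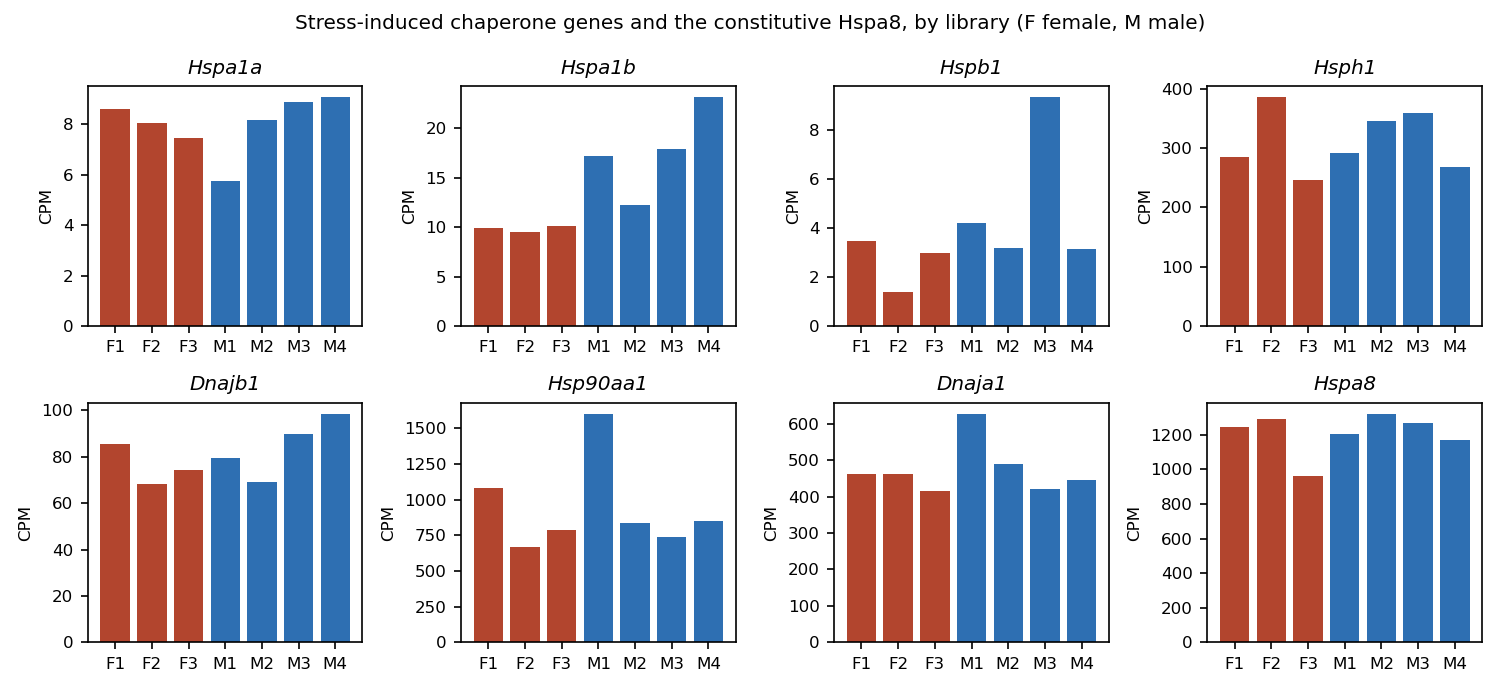
CPM of the 7 stress-induced chaperone genes and of the constitutive Hspa8 in each of 7 libraries (F female, M male), with axes from 0. The 4 males are above the 3 females for Hspa1b, while male 3 stands out for Hspb1 at 9.31 CPM and male 1 for Hsp90aa1 at 1600 CPM.

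Hspb1, the best known inducible small heat shock gene, was low in all libraries but one. It stood at 3.46, 1.39 and 2.99 CPM in the females and at 4.20, 3.18, 9.31 and 3.12 CPM in the males. Male 3 was the high library, and the other males lay among or just above the females. The log2 difference of 0.92 ± 0.47 (SE) did not pass (edgeR adjusted p = 1.00) and fell to 0.40 without male 3. Of the exon stretches of Hspb1, 48.8% occur in 1 other gene, the pseudogene Hsp25-ps1.

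Hsp90aa1 varied with another library. It stood at 1083, 670 and 788 CPM in the females and at 1600, 836, 738 and 852 CPM in the males. Male 1 was alone at the top, and the groups overlapped. The log2 difference of 0.25 ± 0.29 (SE) turned to -0.06 without male 1. Per length, Hsp90aa1 reached 0.99 of the level of Hsp90ab1 in male 1 and 0.34 to 0.55 of it in the other 6 libraries. Of the exon stretches of Hsp90aa1, 47.5% occur in other genes, mostly Gm12346, against 3.44% for Hsp90ab1, so shared reads bear on this ratio and on its rank. Male 1 was also the library with the most mitochondrially encoded mRNA, whose part in this was not tested.

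The DnaJ partner Dnaja1 had the same leading library, with 461, 463 and 415 CPM in the females and 627, 489, 421 and 445 CPM in the males. The log2 difference was 0.15 ± 0.18 (SE). Dnajb1, the DnaJ protein that feeds clients to inducible Hsp70, stood at 85.4, 68.2 and 74.2 CPM in the females and at 79.6, 69.1, 89.8 and 98.5 CPM in the males. It was highest in male 4 and lowest in female 2, with overlapping groups and a log2 difference of 0.15 ± 0.17 (SE). Hsph1, the exchange factor, stood at 286, 386 and 246 CPM in the females and at 292, 345, 359 and 267 CPM in the males, with a female at either end. Its log2 difference was 0.05 ± 0.20 (SE).

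The stress-induced genes thus did not share a leading library. By CPM, male 4 was highest for Hspa1b and Dnajb1 and narrowly for Hspa1a. Male 3 was highest for Hspb1, male 1 for Hsp90aa1 and Dnaja1, and female 2 for Hsph1. The class mean of log2 deviations from each gene's own mean was -0.01, -0.30 and -0.22 in the females and 0.19, -0.04, 0.28 and 0.11 in the males. The groups overlapped through female 1 and male 2, and the difference of the means was 0.31. The largest edgeR estimates in the class were 0.92 for Hspb1 and 0.84 for Hspa1b. The others lay between -0.01 and 0.25, and the median was 0.15. By the class mean of deviations, male minus female was 0.23 for the 5 constitutive genes that heat can also raise. Their median edgeR estimate was 0.09 and the highest 0.90 (Hspb8). The class difference was 0.11 for the 2 unsorted genes. It was 0.02 for ER genes, 0.06 for mitochondrial genes, 0.08 for synaptic and endocytic genes, -0.03 for constitutive cytosolic genes, -0.07 for other small heat shock or vascular genes and -0.08 for germ cell or cilium genes. No test was made of these class means. Estimates were higher in males for 6 of the 7 stress-induced genes, none of them called, against 52.3% of all genes.

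**Figure D4:**
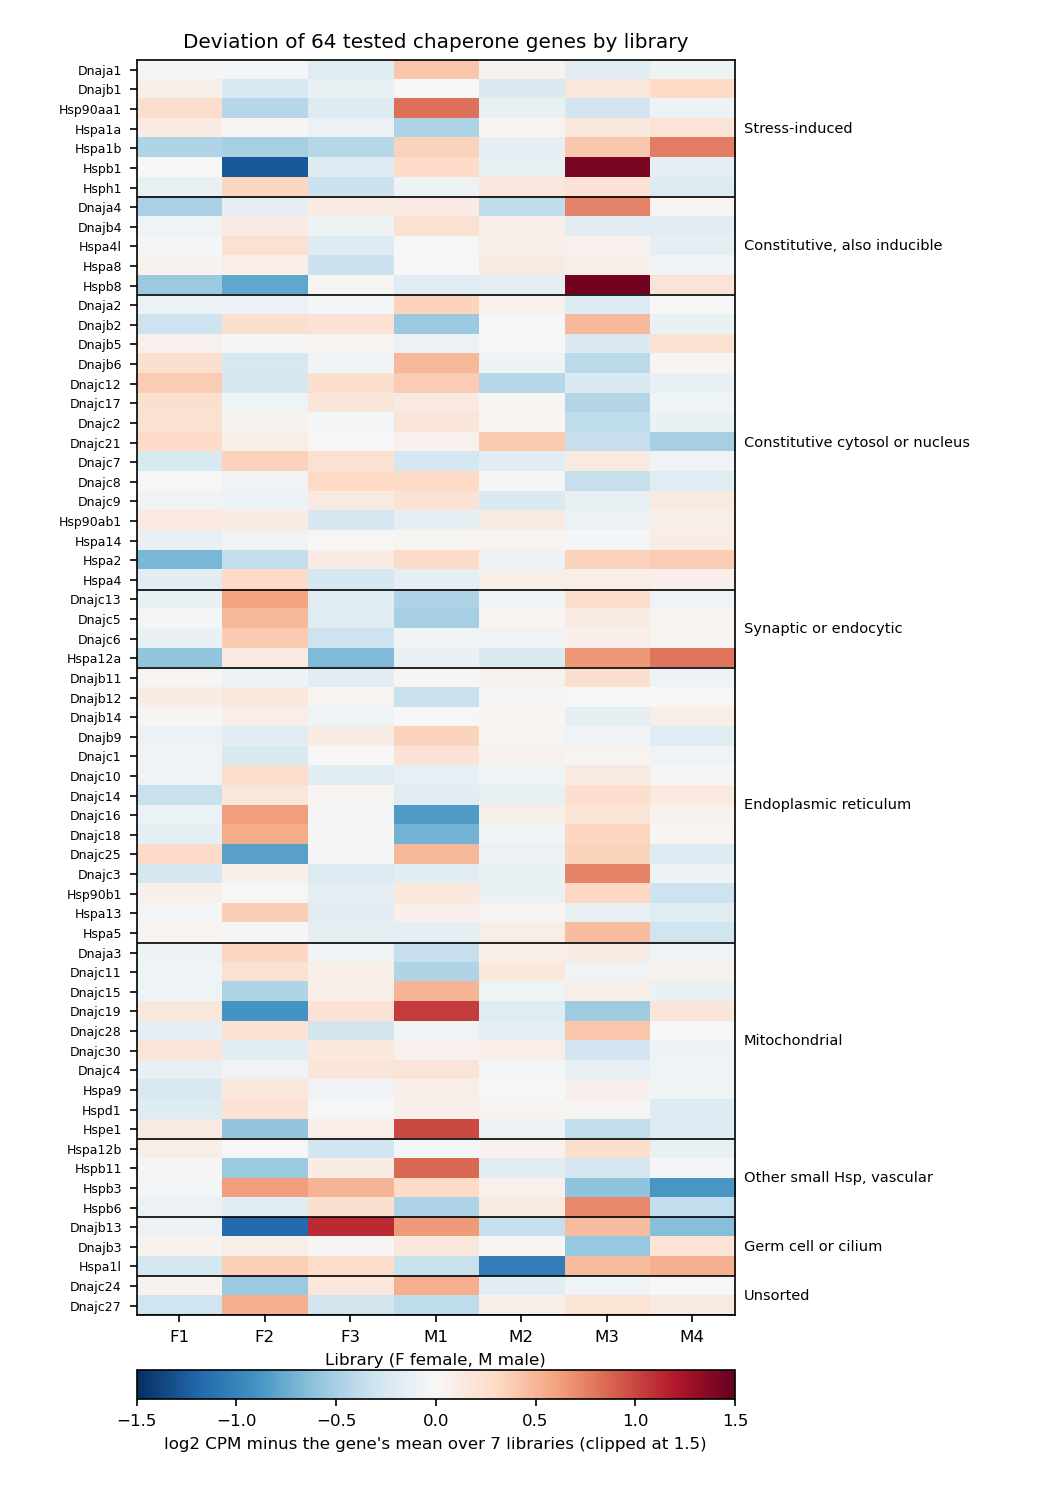
Heat map of the log2 CPM of each of the 64 tested chaperone genes in each library as a deviation from the gene's mean over 7 libraries, red above and blue below, with genes grouped by class. Hspb1 and Hspb8 are darkest in male 3, Hspe1 and Dnajc19 in male 1, and the synaptic and endocytic class averages 0.40 in female 2.

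Of the constitutive genes that heat can also raise, Hspa8, which among other tasks strips clathrin from synaptic vesicles, was steady. It stood at 1245, 1288 and 962 CPM in the females and at 1206, 1320, 1268 and 1168 CPM in the males. All males lay within 1168 to 1320 CPM, female 3 was the low library, and the log2 difference was 0.09 ± 0.17 (SE). Of the exon stretches of Hspa8, 38.6% occur in other genes. Hspb8, the small heat shock gene that works with Bag3 in the autophagy of misfolded clients, stood at 10.4, 8.91 and 15.5 CPM in the females and at 13.6, 13.8, 41.8 and 17.5 CPM in the males. Male 3 again exceeded all others. The log2 difference of 0.90 ± 0.41 (SE) had an edgeR adjusted p of 1.00 and was 0.36 without male 3. Dnaja4, a cytosolic DnaJ gene, was also highest in male 3, at 45.6 CPM against 19.3 to 29.6 CPM in the others, while Dnajb4 and Hspa4l had log2 differences of 0.01 and -0.01.

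Other small heat shock genes were also highest in the same library. Of the 8 Hspb genes, 5 were highest in male 3, of which Hspb2 and Hspb7 had too few counts to be tested. Male 3 was the highest library for 16.8% of all genes tested. Hspb6, a small heat shock gene best known from muscle, stood there at 15.6 CPM against 6.82 to 11.2 CPM in the others. Cryab, the related crystallin chaperone that oligodendrocytes express strongly, stood at 184 CPM in male 3 against 52.5 to 86.3 CPM. The oligodendrocyte and choroid plexus sums were also highest in male 3, and their part in these genes was not tested. Hspb11, a member by name that serves intraflagellar transport, was instead highest in male 1, at 36.9 CPM against 13.8 to 21.9 CPM. Hspb3 had the lowest estimate of all members, at -0.74 ± 0.52 (SE), on only 0.0984 to 0.371 CPM.

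**Figure D5:**
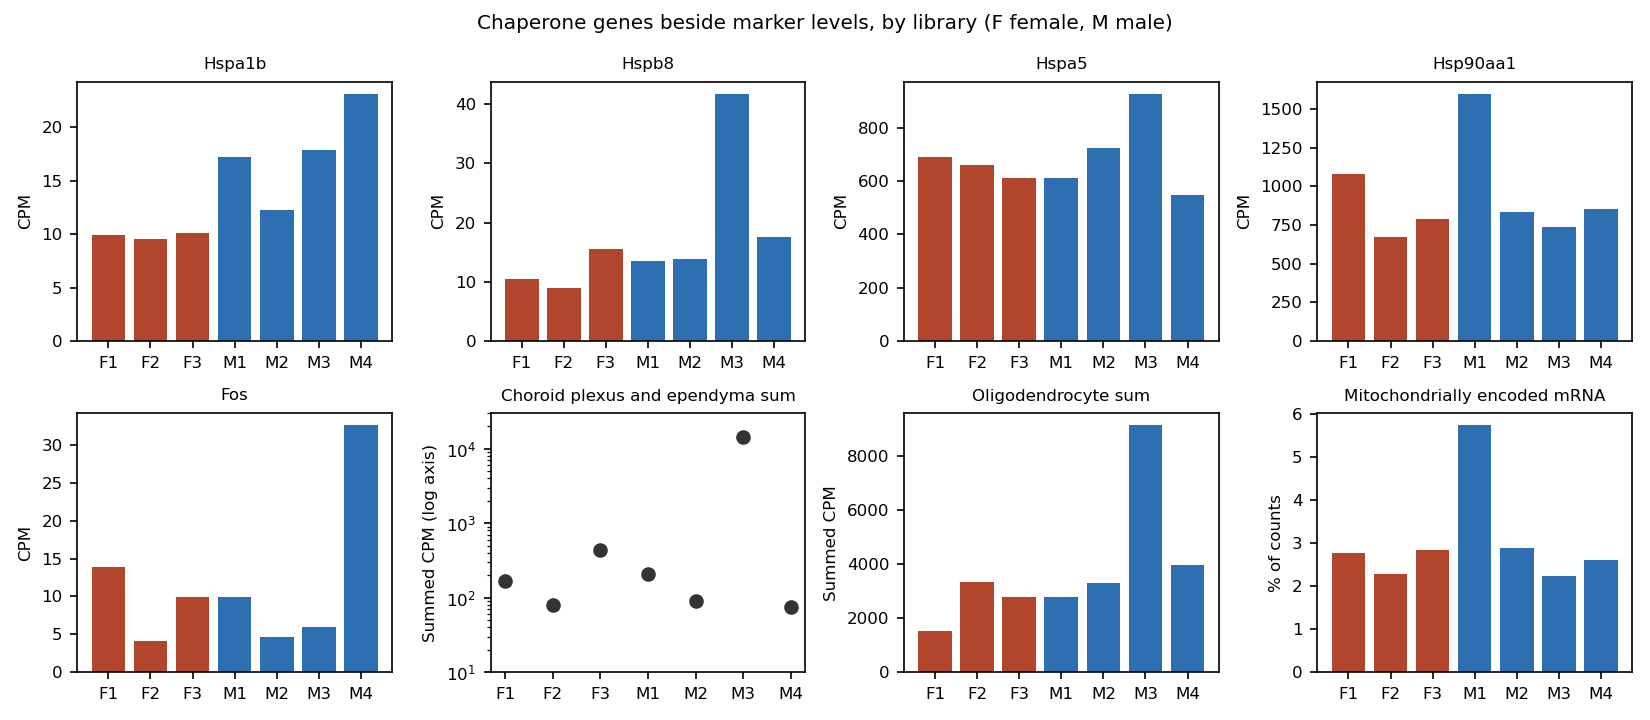
CPM per library of Hspa1b, Hspb8, Hspa5, Hsp90aa1 and Fos, the summed CPM of the choroid plexus and ependyma list (log axis) and of the oligodendrocyte list, and the percent of counts from mitochondrially encoded mRNA (F female, M male). Male 3 leads Hspb8, Hspa5 and both marker sums, male 1 leads Hsp90aa1 and the mitochondrial share, and male 4 leads Hspa1b and Fos.

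Of the 15 constitutive cytosolic genes, 1 had an unadjusted p under 0.05 between the sexes. Hsp90ab1 stood at 1502, 1485 and 1146 CPM in the females and at 1231, 1475, 1280 and 1441 CPM in the males, with overlapping groups and a log2 difference of -0.02 ± 0.17 (SE). Hspa2, an Hsp70 gene that male germ cells need and that brain also expresses, stood at 51.3, 64.4 and 89.6 CPM in the females and at 101, 77.7, 105 and 108 CPM in the males. Of the males only male 2 was below the highest female. Its log2 difference of 0.51 ± 0.22 (SE) had an unadjusted p of 0.0387 and an adjusted p of 1.00 (edgeR).

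Steadiest of the tested members was Hspa14, a ribosome-associated Hsp70, whose highest library exceeded its lowest by a factor of 1.16. Dnajb6 and Dnajb2, which restrain protein aggregation in neurons, moved in opposite ways in male 1. Dnajb6 was there at its highest, 442 CPM against 237 to 370, and Dnajb2 at its lowest, 58.4 CPM against 69.4 to 120. Dnajc7, which bridges Hsp70 and Hsp90, had an estimate of -0.22 ± 0.18 (SE), and Dnajc12, a co-chaperone of the enzymes that start monoamine synthesis, one of -0.23 ± 0.23 (SE). Neither passed the test.

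Of the 4 synaptic and endocytic genes, 3 had their highest level in female 2, as had 21.1% of all genes tested. Dnajc5, the cysteine string protein that keeps release machinery folded on synaptic vesicles, stood at 287, 407 and 256 CPM in the females and at 206, 298, 317 and 298 CPM in the males. Dnajc6, the neuronal auxilin that recruits Hspa8 to clathrin coats, stood at 212, 298 and 184 CPM in the females and at 218, 218, 240 and 234 CPM in the males. Both were highest in female 2, and the groups overlapped. Their log2 differences were -0.18 ± 0.22 and -0.02 ± 0.19 (SE).

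Hspa12a, a distant Hsp70 relative that is high in brain, behaved otherwise. It stood at 62.7, 104 and 59.7 CPM in the females and at 87.2, 81.4, 148 and 165 CPM in the males. Males 3 and 4 were above every female, while males 1 and 2 lay below female 2. The log2 difference of 0.68 ± 0.30 (SE, unadjusted p = 0.0512 by edgeR) was 0.14 with males 1 and 2 alone and 1.06 with males 3 and 4 alone. The deposited column names split the males in the same way by a prefix, mv or mb, that the labels do not explain.

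In the ER, Hspa5 stood at 690, 659 and 611 CPM in the females and at 612, 723, 927 and 548 CPM in the males. Males held both ends, with male 3 high and male 4 low, and the log2 difference was 0.10 ± 0.20 (SE). Hsp90b1 had the same order among males at its ends, with 434, 412 and 373 CPM in the females and 460, 385, 512 and 331 CPM in the males. Dnajc3, which binds Hspa5 and restrains the kinase of the ER stress response, stood at 145 CPM in male 3 and at no more than 91.3 CPM in the others. In male 3, 11 of 14 tested ER members were above their own means, and the class summed to 2311 CPM against 1639 to 1954 CPM. The median log2 deviation over all genes tested was 0.002 in male 3.

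Hspa5, Hsp90b1 and Dnajc3 are also the 3 members with the ER stress element in their windows. Each was highest in male 3, as were 16.8% of all genes tested. Dnajb11 and Dnajc14, ER members without the element, were also highest there, at 97.3 and 60.8 CPM. The other tested ER members were highest in other libraries. The part of the element in these levels was not tested. Other genes of the ER stress response were compared from a list of 18. None was called between the sexes, 12 estimates were higher in males and 6 lower, and the median was 0.07. The lowest p values belonged to Sdf2l1, a partner of Hspa5, at 0.50 ± 0.28 (SE) and Manf, a secreted ER stress factor, at 0.25 ± 0.22 (SE). Sdf2l1 was at 47.6 CPM in male 3 against 18.6 to 28.1, and Pdia4, a disulfide isomerase, at 185 CPM against 90.2 to 121. Ddit3, the transcription factor of the terminal ER stress response, was not high there, at 14.6 CPM against 15.1 to 17.6. The part of the choroid plexus, a secretory tissue whose markers were high in male 3, was not tested.

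Elsewhere in the ER, Dnajb12, a membrane-anchored DnaJ gene of ER quality control, stood at 23.0, 23.7 and 21.9 CPM in the females and at 16.8, 21.6, 21.4 and 21.2 CPM in the males. Every male was below every female, as for 2.78% of all genes, but 3 of the males were within 1 CPM of female 3. The log2 difference was -0.17 ± 0.16 (SE). Dnajc16 had an estimate of -0.29 ± 0.27 (SE), with male 1 lowest at 13.9 CPM and female 2 highest at 38.6 CPM.

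Mitochondrial members did not move together. Hspe1, the short lid of the chaperonin, stood at 199, 121 and 194 CPM in the females and at 361, 173, 141 and 158 CPM in the males. Male 1 was highest and female 2 lowest. The log2 difference of 0.28 ± 0.34 (SE) turned to -0.12 without male 1. Hspd1, the chamber subunit that is read from the other side of the same promoter region, stood at 203, 268 and 233 CPM in the females and at 244, 238, 239 and 202 CPM in the males, with the groups fully mixed. Its log2 difference was -0.02 ± 0.16 (SE). Of its exon stretches 39.7% occur in other genes, and of those of Hspe1 18.4%. The ratio of Hspe1 to Hspd1 in CPM was 1.48 in male 1 and 0.451 in female 2, and between 0.589 and 0.98 in the other 5 libraries.

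Hspa9, the mitochondrial Hsp70 that pulls imported chains through the membrane, lay between 213 and 279 CPM in all libraries, with a log2 difference of 0.07 ± 0.15 (SE). Dnajc19, a DnaJ protein of that import motor, followed Hspe1. It stood at 100.3, 47.8 and 103 CPM in the females and at 185, 78.9, 61.9 and 102 CPM in the males, again highest in male 1 and lowest in female 2. Its log2 difference was 0.35 ± 0.39 (SE). Of the 7 mitochondrial partners listed, such as Trap1 and Lonp1, none was called, with 3 estimates higher and 4 lower. The lowest p values were those of the protease genes Clpp at -0.11 ± 0.16 (SE) and Lonp1 at -0.10 ± 0.19 (SE).

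Libraries differed in how levels went with transcript length. Across the 64 members, Spearman's rho between exon length and deviation was 0.45 in female 2, -0.44 in female 3 and -0.32 in male 1. Over 20382 genes it was 0.39, -0.33 and -0.34 in the same libraries. These are descriptions across genes, which are not independent replicates and share each library's RNA. The 9 members with exons under 2000 bases in all, Hspe1 among them, had a median deviation of 0.20 in male 1 and -0.16 in female 2, while the 34 over 4000 bases had -0.03 and 0.13. Female 2 was the highest library for 19 of 64 members (29.7% against 21.1% of all genes), male 1 for 15 (23.4% against 24.0%) and male 3 for 12 (18.8% against 16.8%). The part of length in single genes was not tested.

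Germ cell and cilium genes were near the limit of detection, apart from Dnajb3 and Dnajb13. Dnajb13, which motile cilia and sperm tails contain, stood at 3.39, 1.58 and 7.87 CPM in the females and at 5.64, 2.81, 5.04 and 2.29 CPM in the males. Female 3 was highest and had the second highest choroid plexus and ependyma sum, 440 CPM, while male 3 with the highest sum stood at 5.04 CPM. The 8 members left untested for low counts were Hspb2, Hspb7, Hspb9, Dnajb7, Dnajb8, Dnajc22, Dnajc5b and Dnajc5g, each with 0 to 35 counts in any library.

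The spread over libraries was compared with that of all genes without a test. The highest library exceeded the lowest at least 2-fold for 21 of 64 members (32.8%) and for 54.6% of all genes tested. Without male 1 these were 13 members (20.3%) and 44.8% of all genes. The median ratio of highest to lowest was 1.60 for members and 2.12 for all genes. Members and all genes were not matched for level. Among members with a mean of at least 1 CPM the widest were Hspb1 at 6.69-fold, Dnajb13 at 4.99-fold, Hspb8 at 4.68-fold, Dnajc19 at 3.87-fold and Hspe1 at 2.99-fold.

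A second comparison asked whether chaperone mRNA went with the percent of DIMPLE in the piece, with sex in the model. No member and no gene passed the adjusted threshold (edgeR, 0.00% of 20420 genes). At an unadjusted p under 0.05, Dnajc12 and Hsp90aa1 rose in estimate, 3.12% of members against 3.33% of all genes, and no member fell, against 1.21%. DESeq2 called 0 genes and had 0 members and 2.58% of genes at that level. The slopes per 10 points of DIMPLE were 0.36 ± 0.15 (SE) for Dnajc12 and 0.42 ± 0.18 (SE) for Hsp90aa1, in log2 units. Male 1, with the most DIMPLE at 40%, had the highest Hsp90aa1. Without male 1, 0 members and 2.48% of genes had an unadjusted p under 0.05. Without female 1 or male 4 the count of members was also 0, with 2.97% and 3.13% of genes. It was 1 without female 2 (4.18% of genes) and 2 without female 3 (5.63% of genes). Without male 2 or male 3 it was 6, with 7.21% and 8.41% of genes. Hspb11 followed with 0.42 ± 0.19 (SE). On the falling side the lowest p belonged to Dnajc11, a mitochondrial inner-architecture gene, at -0.28 ± 0.12 (SE), Dnajc16 at -0.39 ± 0.22 (SE) and Dnaja3, a mitochondrial DnaJ gene.

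Partners of the cytosolic chaperones were compared from a list. Of 23 HSF factors and co-chaperones none was called, with 12 estimates higher in males and 11 lower and a median of 0.04. Hsf1 itself had a log2 difference of -0.12 ± 0.18 (SE), and Bag3, an HSF1 target, one of -0.15 ± 0.28 (SE). Cryab had the lowest p, at 0.73 ± 0.32 (SE, unadjusted p = 0.0433 by edgeR), followed by Fkbp5, a co-chaperone of the glucocorticoid receptor, at 0.31 ± 0.17 (SE). The 8 subunits of the CCT chaperonin, which folds actin and tubulin, split evenly with 4 estimates higher and 4 lower, and the lowest p values were those of Cct7 at -0.09 ± 0.14 (SE) and Cct4 at 0.09 ± 0.16 (SE).

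The 18 immediate early and handling-sensitive genes were compared because slice cutting can raise them beside the inducible chaperones. None was called, and 12 estimates were higher in males. Jun stood at 37.9, 40.4 and 42.5 CPM in the females and at 48.1, 51.1, 73.0 and 102 CPM in the males, with each male above each female. Its log2 difference was 0.77 ± 0.26 (SE) with an unadjusted p of 0.0148 and an adjusted p of 0.851 (edgeR). Ier5, an immediate early gene that can activate HSF1, followed at 0.29 ± 0.19 (SE). Fos stood at 13.9, 4.12 and 9.95 CPM in the females and at 9.87, 4.72, 6.02 and 32.5 CPM in the males, with male 4 alone at the top. Fos is the gene that drives the recombinase in these mice. By CPM, male 4 was highest for Fos and Jun as for Hspa1a, Hspa1b and Dnajb1. For Hspa1a the lead was narrow, at 9.07 CPM against 8.88 CPM in male 3. Per exon length male 3 led for Hspa1a, at 9.15 TPM against 7.76 TPM in male 4. Hspb1, Hsph1, Hsp90aa1 and Dnaja1 had their highest levels in other libraries. The share of all genes highest in male 4 was not counted, and the part of Fos in these genes was not tested.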

How the data were processed

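The file is 1 table of the series. Its raw counts are whole numbers that the authors deposited unnormalized, and it adds a normalized signal, which was not used, per the file headers. The log2 fold changes, p-values and adjusted p-values beside them are the authors' deposited results. Tools named in the submitters' processing notes are TopHat2 2.2.1 and HTSeq 2.0.1, with cutadapt, DESeq2 1.26.0 and the build GRCm39. Parameters and strand setting are not given in the sources used here, so overlapping genes and near-identical copies may be counted uncertainly. Gene coordinates are those of the table.

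Deposited counts were kept where filterByExpr allowed (a count of 10, in all 15), given TMM factors and fitted with edgeR 4.0.16 (robust quasi-likelihood, R 4.3.3), with Benjamini-Hochberg adjustment over 20420 genes and a threshold of 0.05. Positive log2 values mean higher in males. The slope fit had sex and percent DIMPLE. TPM divide counts by GENCODE exon length, matched for all 72 members, and understate genes with a long union of exons such as Dnaja1. Deviations use log2 CPM with a prior count of 2. At these depths counting error matters for low genes, and p-values weigh a difference or slope against the spread between mice. No 2 libraries were alike (chi-square over degrees of freedom at least 36.2). The fit was tested on simulated data whose changes were larger than any member's estimate in the main fits. That test says nothing of the power to find differences of the size seen here.

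Members, classes and lists were chosen with earlier results of these data known. The rule for named genes took all stress-induced members, 10 major constitutive, ER, mitochondrial and synaptic members, the 5 lowest p in each direction between the sexes, 3 in each direction for the slope, the 5 widest over libraries, Fos, and the 2 lowest p of each pathway list. Other genes were named after their values were seen. Alternatives were other scalings and filters, DESeq2 1.42.0, limma-voom (limma 3.58.1), a DIMPLE covariate, a block for replicate number, other prior counts, classes and folds, males by column prefix and each library left out. A fit of replicates 1 to 3 without the block was added after seeing the data.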

Additional observations from a re-analysis of the deposited data

Results flagged for a closer look

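In 7 members 1 of the 4 males lay far from the other 3, judged by its gap to the nearest male as a share of the range of the males by Dixon's criterion. Among 30 measures examined, 29 members and the mitochondrially encoded share of counts, chance alone picks about 1 in 20. That rate does not hold for members named for a wide spread or a low slope p, such as Hspb8, Hspe1, Hsp90aa1 and Hspb11, since those choices favour a distant library. Male 1 was the distant library for 5 of them. It was low for Dnajb12, with a gap of 0.91 of the range, and for Dnajc5, with 0.831. It was high for Hsp90aa1 with 0.868, for Hspb11 with 0.863 and for Hspe1 with 0.854. Male 3 was distant for Hspb8, high with 0.861, and male 4 for Hspd1, low with 0.854 on a narrow range of 202 to 244 CPM.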

How the results depend on the processing

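No member passed under any alternative, and the lowest adjusted p was 0.0997 (Hspa1b, DESeq2). Hspa1b kept its direction under its 17 alternatives, at 0.56 to 1.07. The count over all genes, 5, became 12 with no filter, 122 with DESeq2 and 48 with the mb males alone, and ran from 4 to 26 with each library left out (26 without male 2). The slope called 15 genes with no filter. Members with a 2-fold spread, 21, were 41 at 1.5-fold and 6 at 3-fold, and 13 to 21 with each library left out (13 without male 1). The stress-induced class difference of 0.31 lay between 0.25 and 0.39 with each library left out and Hspb1 and Hspa1b kept. Same-numbered mice correlated by 0.307, 0.169 and 0.032 in their deviations, and the other pairs by -0.465 to 0.303. Whether the numbers pair the mice cannot be told from these values. The replicate block called 28 genes and 0 members, against 5 and 0 in the same libraries without it.

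Of 493 named-member estimates under alternatives, 52 in 20 members changed sign, none of them called. With DIMPLE as a covariate these were Dnaja3 0.030, Dnajc11 0.070, Dnajc16 0.016, Dnajc19 -0.11, Hsp90aa1 -0.11, Hsp90ab1 0.048, Hsp90b1 -0.078, Hspa1a 0.11, Hspb11 -0.091 and Hspe1 -0.12. With the mb males alone they were Dnaja1 -0.038, Dnajc19 -0.031, Dnajc6 0.042, Hsp90aa1 -0.085, Hspa1a 0.16, Hspb11 -0.018 and Hspe1 -0.19. With the mv males alone they were Dnajb1 -0.048 and Hspd1 0.021. With the replicate block they were Dnajb13 0.29 and Hspd1 0.046, and in the same libraries without it Dnajb13 0.064 and Hspd1 0.037. With limma-voom it was Dnajc6 0.0090, and with no filter Hspa1a 0.0048. With each library left out, estimates that changed sign ran from -0.19 to 0.022 for Dnaja3, -0.52 to 0.66 for Dnajb13, -0.052 to 0.53 for Dnajc19, -0.31 to 0.044 for Dnajc5, -0.16 to 0.21 for Dnajc6, -0.064 to 0.46 for Hsp90aa1, -0.14 to 0.043 for Hsp90ab1, -0.065 to 0.15 for Hsp90b1, -0.081 to 0.12 for Hspa1a, -0.070 to 0.21 for Hspa5, -0.031 to 0.17 for Hspa8, -0.022 to 0.18 for Hspa9, -0.030 to 0.42 for Hspb11, -0.12 to 0.085 for Hspd1, -0.12 to 0.42 for Hspe1 and -0.089 to 0.25 for Hsph1. The cause was not tested. Precision was set by 3 and 4 mice rather than by depth, except for low genes such as Hspb3.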
